A study of Mus musculus with 9 samples.

Results

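The brush border peptidases are cell surface enzymes that sit on the apical microvilli of the proximal tubule, where they cut peptides in the filtrate. A set of 9 genes was named for them: the aminopeptidase genes Anpep, Enpep and Xpnpep2, the dipeptidyl peptidase gene Dpp4, the endopeptidase genes Mme, Mep1a and Mep1b, the dipeptidase gene Dpep1, and the gamma-glutamyltransferase gene Ggt1. They were measured as RNA in kidney cortex, and 8 of the 9 had a probe set that the platform annotation names with a single gene symbol; Ggt1 was not analysed here. The 8 were among 22180 genes with such a probe set, and all 8 passed the filter on low values that left 17740 genes to test. Each of the 8 had 1 such probe set, so choosing the brightest probe set per gene decided nothing among them. One measured result did bear on the choice of members: Xpnpep2 was already known in these data as one of the larger differences between db/db and db/m mice. The set was thus chosen by gene function with that one value in view, so the values of Xpnpep2 against db/m are given as a description, with no p-value.

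The study used 20-week-old male mice of the C57BLKS/J background, with 3 arrays in each of 3 groups, labelled as biological replicates. The db/db+TSF mice, homozygous for the leptin receptor mutation, were dosed with Tang-shen Formula (TSF), a mixture of medicinal herbs, through a stomach tube for 12 weeks, with 2.4 g/kg each day. The db/db mice had the same genotype and were given saline. The db/m mice are lean carriers with the mutation on 1 chromosome copy; no dosing is stated for them. The labels put 9 animals in each db/db arm, of which 3 arrays per arm were used here; whether an array holds 1 animal is not stated, so the p-values measure the spread between these samples. The aim stated for the series was to find targets of the formula in the diabetic kidney.

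In the proximal tubule, brush border peptidases take filtered peptides apart into free amino acids and small peptides, which transporters in the same membrane then take up. The same enzymes end the action of peptide hormones that reach the lumen: aminopeptidase A and neprilysin act on angiotensins, and neprilysin and aminopeptidase P on kinins. They are abundant enough in the kidney to serve as classical markers of the brush border membrane.

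The array medians lay between 10.3 and 11.2 intensity units. All 16 proximal tubule markers measured were bright, with means from 10.79 (Slc22a6) to 12.19 (Slc34a1) on the log2(intensity + 1) scale used throughout, and none was under the filter at 2.65. Their summed intensity was 43989 to 44541 in db/db+TSF, 41271 to 44699 in db/db and 42246 to 45801 in db/m arrays, so the groups overlapped in this sum for the main cell type that carries a brush border. Single markers differed more, in both directions. The groups did not overlap for 43.8% of them in db/db against db/m, beside 18.6% of all genes. In db/db+TSF against db/m it was 62.5%, beside 22.1%. In whole cortex, fewer cells of a type and less RNA per cell cannot be told apart. The array db/db+TSF replicate 2 stood apart: in it 40 genes lay more than 1 log2 unit below all 8 other arrays, against 0 to 5 genes in each other array. In the other direction, db/db replicate 3 had 21 genes more than 1 log2 unit above all other arrays, db/db+TSF replicate 2 had 9 and the rest had 0 to 7. Results that rest on db/db+TSF replicate 2 are given with and without it.

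Against db/m, the peptidases did not share a direction in db/db cortex. Xpnpep2 was higher by 1.18 on the log2 scale, Dpp4 was 0.42 higher and the other 6 lay below 0, from -0.03 for Enpep to -0.61 for Mep1b. Of the 8 members 1, Xpnpep2, was past the threshold of a limma adjusted p of 0.05, where 1.05% of all 17740 genes were (0.592% higher and 0.462% lower); since Xpnpep2 was chosen with this result known, nothing is read from the count. By an unadjusted p under 0.05, which 13.9% of all genes met, Dpp4 and Mep1a were past it as well. The groups did not overlap for 5 of the 8 members, 2 higher (Xpnpep2 and Dpp4) and 3 lower (Anpep, Mep1a and Mme), and they did not overlap for 18.6% of all genes, 10.4% higher and 8.28% lower. Xpnpep2 is in that count with its difference known beforehand, so its part is not read either. Among the lists described below, the share without overlap ran from 0% for endothelial markers to 50%. The 50% was reached by other cell surface peptidases and by T, B and plasma cell markers. It was 43.8% for proximal tubule markers and 41.7% for other genes of brush border structure and apical transport. The median difference of the 8 was -0.11, beside 0.01 over all genes.

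**Figure D1:**
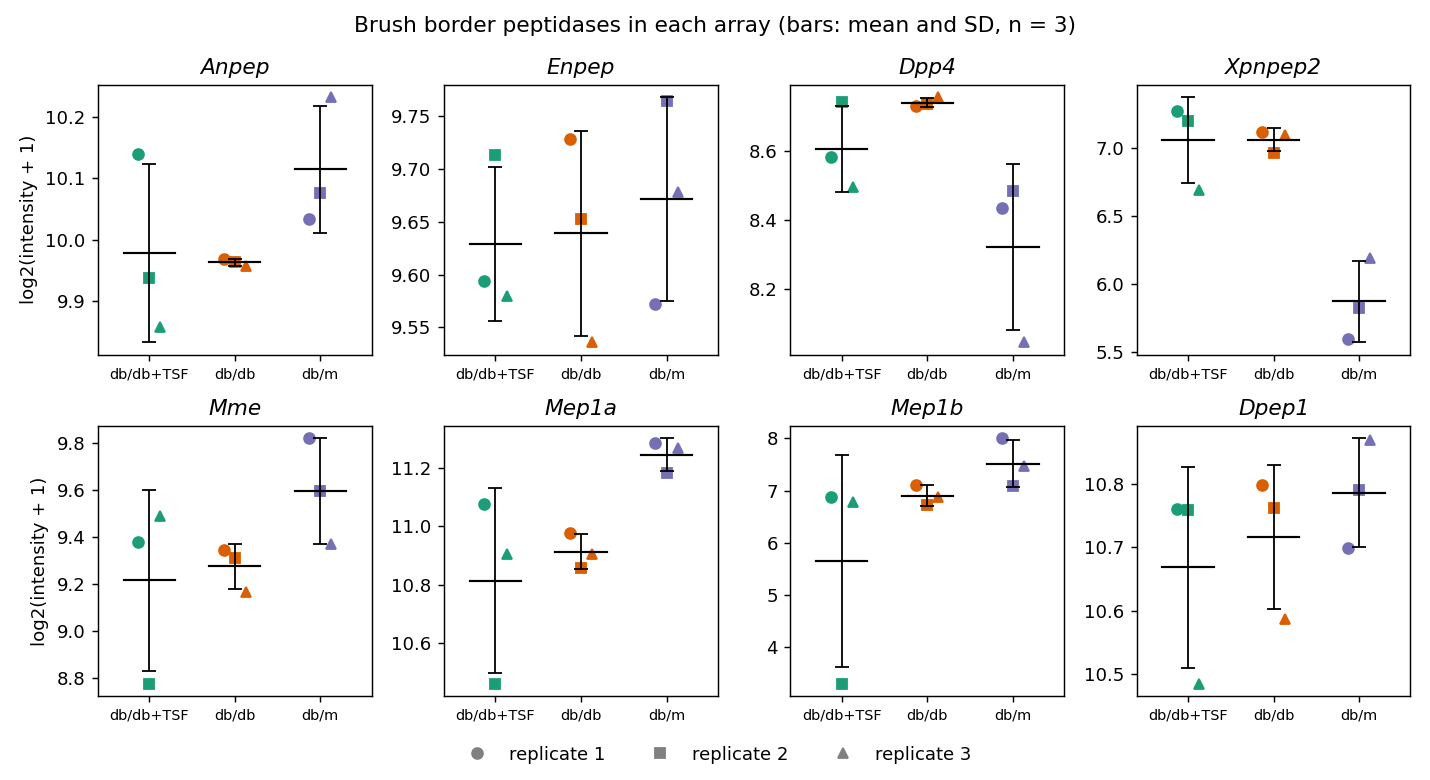
Values of the 8 measured brush border peptidases in each array, on the log2(intensity + 1) scale with a separate axis per gene; points are arrays, horizontal lines group means and bars 1 SD (n = 3). Xpnpep2 is higher in all 6 db/db+TSF and db/db arrays than in the 3 db/m arrays, and 1 db/db+TSF array has a Mep1b value of 3.31, with 6.72 the lowest of the other arrays.

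On GRCm38.p6, per RefSeq, Xpnpep2 spans chrX:48106913-48136982, Anpep chr7:79821803-79848210, Enpep chr3:129269177-129332749 and Dpp4 chr2:62330073-62412315. Mep1a spans chr17:43474324-43504143, Mme chr3:63295211-63383713 and Dpep1 chr8:123186235-123201812.

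Upstream sequences are shown for the members whose groups did not overlap with db/m in either comparison: Xpnpep2 and Dpp4, the higher ones, and Mep1a, the lower one. They are the 250 bases before a RefSeq start site (GRCm38.p6), 5′ to 3′ on the gene's strand, from chrX:48108475-48108724 (plus strand), chr2:62412232-62412481 (minus strand) and chr17:43502774-43503023 (minus strand). Each of these start sites lies inside its gene's span as given above, not at the outer end. The Xpnpep2 and Mep1a windows lie wholly within the spans, and the Dpp4 window reaches past the end of its span. The bases before the outer ends of the Xpnpep2 and Mep1a spans were not searched. Capitals mark matches to 3 motifs searched on both strands, GTTAAT (a half-site of HNF1 factors), CAAAGT (the core of HNF4 sites) and AGAACA (a half-site of steroid receptors), which 6.43%, 12.6% and 16.1% of 32851 such windows hold; the motifs do not overlap here.
Xpnpep2: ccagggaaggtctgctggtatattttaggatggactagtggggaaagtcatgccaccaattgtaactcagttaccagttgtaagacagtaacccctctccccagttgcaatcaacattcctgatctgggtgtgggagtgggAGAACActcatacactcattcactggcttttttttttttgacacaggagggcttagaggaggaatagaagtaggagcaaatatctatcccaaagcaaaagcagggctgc
Dpp4: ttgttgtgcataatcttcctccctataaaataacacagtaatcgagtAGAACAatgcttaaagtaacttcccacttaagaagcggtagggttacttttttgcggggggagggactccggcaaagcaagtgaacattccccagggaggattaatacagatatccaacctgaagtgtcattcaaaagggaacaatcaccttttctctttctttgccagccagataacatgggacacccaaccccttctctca
Mep1a: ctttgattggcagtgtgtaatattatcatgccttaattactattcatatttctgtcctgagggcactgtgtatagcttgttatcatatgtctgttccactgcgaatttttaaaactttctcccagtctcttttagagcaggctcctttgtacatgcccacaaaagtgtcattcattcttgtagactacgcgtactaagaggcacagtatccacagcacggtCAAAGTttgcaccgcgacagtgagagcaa
The AGAACA match starts 109 bases before the start site in Xpnpep2 and 203 before it in Dpp4, and the CAAAGT match 29 before it in Mep1a. CAAAGT also occurs in the windows of Dpep1 and Mme, and GTTAAT in none of the members' windows.

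Xpnpep2 encodes membrane-bound aminopeptidase P, which removes the first residue of peptides whose next residue is proline, bradykinin among them. Its intensity was 154, 146 and 103 in the db/db+TSF arrays, 138, 124 and 136 in the db/db arrays and 47.5, 55.8 and 72.3 in the db/m arrays. All 6 arrays of the homozygous mice lay above all 3 db/m arrays, and the lowest of them was db/db+TSF replicate 3. On the log2 scale it averaged 7.06 ± 0.32 in db/db+TSF, 7.06 ± 0.09 in db/db and 5.87 ± 0.30 in db/m (SD, n = 3 each). The difference between db/db and db/m was 1.18 (SE 0.17), a 2.27-fold higher level in db/db, and between db/db+TSF and db/m it was 1.18 (SE 0.17), or 2.27-fold. With each array left out in turn, the first difference stayed between 1.05 and 1.34 and the second between 1.04 and 1.36.

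With TSF, Xpnpep2 lay on both sides of the db/db values, higher in replicates 1 and 2 and lower in replicate 3. The difference between db/db+TSF and db/db was -0.00 (95% interval -0.38 to 0.38, not adjusted for the number of genes; limma adjusted p = 0.996). A cytosolic relative, Xpnpep1, which cleaves the same kind of bond inside cells and was named after its values were seen, had differences of -0.16 between db/db+TSF and db/db (adjusted p = 0.464), 0.03 between db/db and db/m (adjusted p = 0.907) and -0.13 between db/db+TSF and db/m (adjusted p = 0.452).

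Over the 9 arrays, the genes whose values were most like those of Xpnpep2 among 17739 others were Rtkn (Pearson r = 0.972), Hddc2 (0.965) and Pklr (0.964); the arrays share the db/db against db/m split, so the correlations describe that split as well. Rtkn averaged 5.83 ± 0.08 in db/db+TSF, 5.89 ± 0.08 in db/db and 5.06 ± 0.10 in db/m (SD, n = 3). Pklr, the pyruvate kinase gene of liver, red cells and kidney, averaged 8.29 ± 0.25 in db/db+TSF, 8.30 ± 0.10 in db/db and 7.61 ± 0.15 in db/m (SD, n = 3). Hddc2 averaged 6.85 ± 0.07 in db/db+TSF, 6.84 ± 0.08 in db/db and 6.16 ± 0.17 in db/m (SD, n = 3).

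Dpp4 encodes dipeptidyl peptidase 4, also known as CD26, which removes dipeptides that end in proline or alanine from peptides such as the incretin hormones. It was also higher in the homozygous mice, by less. Its intensity was 382, 427 and 360 in db/db+TSF, 423, 425 and 431 in db/db, and 345, 357 and 263 in db/m arrays. The db/db arrays were nearly level, db/m replicate 3 was the lowest of the 9, and neither db/db+TSF nor db/db overlapped with db/m. For db/db+TSF the margin was small, 360 against 357 at the closest pair. The difference between db/db and db/m was 0.42 (SE 0.12, 1.34-fold), which did not pass over all genes (limma adjusted p = 0.142), and between db/db+TSF and db/m it was 0.28 (SE 0.12; adjusted p = 0.258). Without db/m replicate 3 the difference between db/db and db/m was 0.28 (adjusted p = 0.227). With each array left out in turn, the difference between db/db+TSF and db/m ran from 0.15 to 0.37. Its limma adjusted p was highest, at 0.573, without db/db+TSF replicate 2.

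T lymphocytes also carry Dpp4, so a list of T, B and plasma cell markers is given beside it. All 10 T, B and plasma cell markers tested lay below 0 in db/db against db/m; their summed intensity was 103 to 133 in db/db+TSF, 111 to 124 in db/db and 162 to 199 in db/m arrays, all dim, and their part in the Dpp4 values was not tested. Under TSF, Dpp4 differed from db/db by -0.13 (95% interval -0.40 to 0.13; adjusted p = 0.69).

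Anpep encodes aminopeptidase N, or CD13, which removes neutral residues from peptide ends and is one of the most abundant brush border proteins. Its intensity was 1127, 979 and 927 in db/db+TSF, 1001, 997 and 993 in db/db, and 1048, 1079 and 1202 in db/m arrays. The 3 db/db arrays were nearly level and lay just below the lowest db/m array, while db/db+TSF replicate 1 reached into the db/m range. The difference was -0.15 (SE 0.10) between db/db and db/m (limma adjusted p = 0.535) and 0.02 (95% interval -0.20 to 0.23) between db/db+TSF and db/db (adjusted p = 0.967). The value against db/m under TSF was -0.14 (adjusted p = 0.532).

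Enpep encodes aminopeptidase A, which removes acidic residues and turns angiotensin II into angiotensin III. Of the 8 members it differed least between groups, with a range of group means of 0.04. Its intensity was 772, 838 and 764 in db/db+TSF, 847, 804 and 741 in db/db, and 760, 869 and 818 in db/m arrays, and the 3 groups overlapped. The difference was -0.03 (95% interval -0.24 to 0.17) between db/db and db/m (limma adjusted p = 0.904) and -0.01 (95% interval -0.22 to 0.20) between db/db+TSF and db/db (adjusted p = 0.977). Its value against db/m under TSF was -0.04 (adjusted p = 0.865).

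**Figure D2:**
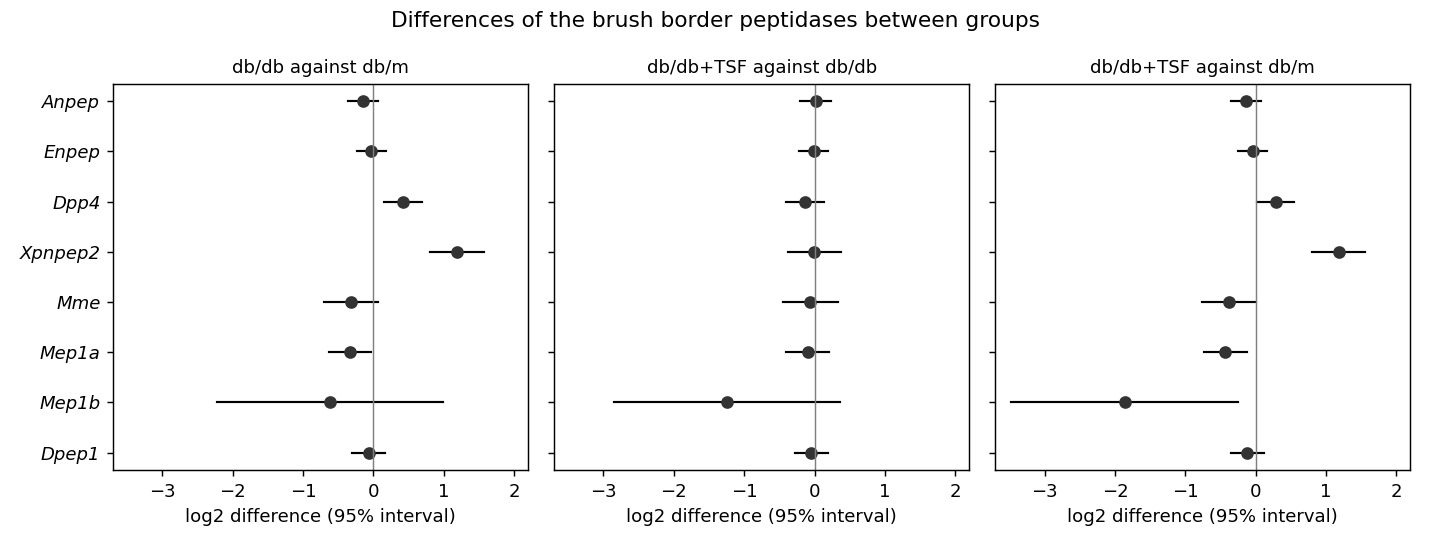
Log2 differences of the 8 members in the 3 comparisons, with 95% intervals from the limma fit that are not adjusted for the number of genes. Xpnpep2 lies at 1.18 in both comparisons with db/m and at -0.00 in db/db+TSF against db/db, and the Mep1b intervals are the widest.

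Among the endopeptidases, Mep1a and Mep1b encode the alpha and beta subunits of meprin, a zinc metalloprotease of the kidney and intestinal brush border. Mep1a had intensities of 2157, 1409 and 1916 in db/db+TSF, 2016, 1855 and 1915 in db/db, and 2495, 2320 and 2462 in db/m arrays. All 6 arrays of homozygous mice lay below the 3 db/m arrays, and db/db+TSF replicate 2 was the lowest. The difference was -0.33 (SE 0.14) between db/db and db/m (limma adjusted p = 0.314) and -0.43 (SE 0.14) between db/db+TSF and db/m (adjusted p = 0.131); neither passed. Without db/db+TSF replicate 2 they were -0.33 (adjusted p = 0.141) and -0.25 (adjusted p = 0.335). The difference between db/db+TSF and db/db was -0.10 (95% interval -0.40 to 0.20; adjusted p = 0.82), and 0.08 (adjusted p = 0.908) without that array.

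Mep1b, which RefSeq places on chromosome 18, was the most variable member. Its intensity was 116, 8.90 and 108 in the db/db+TSF arrays, 137, 104 and 116 in the db/db arrays and 254, 135 and 175 in the db/m arrays. The value of db/db+TSF replicate 2 lay under the median of all probe sets, and the other 5 arrays of homozygous mice lay between 104 and 137, overlapping with db/m replicate 2. On the log2 scale Mep1b averaged 5.65 ± 2.03 in db/db+TSF, 6.90 ± 0.20 in db/db and 7.52 ± 0.46 in db/m (SD, n = 3). The difference between db/db+TSF and db/db was -1.25 (SE 0.73; limma adjusted p = 0.523) and was -0.08 (adjusted p = 0.97) without replicate 2. Against db/m, db/db+TSF differed by -1.86 (adjusted p = 0.217) with that array and -0.69 (adjusted p = 0.195) without it. Between db/db and db/m it was -0.61 (SE 0.73; adjusted p = 0.748), and the same value had an adjusted p of 0.195 when replicate 2 of db/db+TSF did not enter the shared spread.

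Mme encodes neprilysin, an endopeptidase that cuts natriuretic peptides, kinins and angiotensins and is made by podocytes as well as by the proximal tubule. Its intensity was 665, 437 and 719 in db/db+TSF, 650, 635 and 574 in db/db, and 903, 773 and 660 in db/m arrays. The db/db arrays lay below the db/m arrays, by a small margin at the closest pair, and db/db+TSF replicate 2 was again the lowest array. The difference was -0.32 (SE 0.18) between db/db and db/m (limma adjusted p = 0.453), -0.38 (SE 0.18) between db/db+TSF and db/m (adjusted p = 0.302) and -0.06 (95% interval -0.45 to 0.33) between db/db+TSF and db/db (adjusted p = 0.925). Without db/db+TSF replicate 2 the last 2 were -0.16 (adjusted p = 0.696) and 0.16 (adjusted p = 0.835). Podocyte markers were on the higher side in the homozygous mice: all 9 lay above 0 in db/db against db/m, and their summed intensity was 1428 to 1535 in db/db+TSF, 1373 to 1494 in db/db and 1238 to 1272 in db/m arrays; their part in the Mme and Enpep values was not tested.

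Dpep1 encodes renal dipeptidase, which splits cysteinylglycine from glutathione breakdown as well as other dipeptides. Its intensity was 1733, 1732 and 1432 in db/db+TSF, 1781, 1736 and 1538 in db/db, and 1662, 1769 and 1870 in db/m arrays, and the 3 groups overlapped, with replicate 3 the lowest in both db/db+TSF and db/db. The difference was -0.07 (95% interval -0.30 to 0.16) between db/db and db/m (limma adjusted p = 0.812) and -0.05 (95% interval -0.28 to 0.19) between db/db+TSF and db/db (adjusted p = 0.894). With TSF it was -0.12 relative to db/m (adjusted p = 0.626).

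What the formula changed is read from db/db+TSF against db/db. By the limma adjusted p 0 of the 8 members passed, beside 0% of all genes, and by an unadjusted p under 0.05 it was also 0 of 8, beside 11.7%. The groups overlapped for all 8 members, while they did not overlap for 20.1% of all genes, 7.81% higher and 12.3% lower. Of the 8 differences 7 lay below 0, with a median of -0.05 beside -0.02 over all genes. Apart from Mep1b, the 95% intervals reached no further than -0.45 and 0.38 on the log2 scale.

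Against db/m, 1 of the 8 members, Xpnpep2, passed in db/db+TSF, beside 3.13% of all genes (1.22% higher and 1.92% lower); it was chosen with its difference from the same db/m arrays known, so nothing is read from this count either. By an unadjusted p under 0.05, which 17.2% of all genes met, Dpp4, Mep1a and Mep1b were past it as well. This comparison shares its db/m arrays with the first and its db/db+TSF arrays with the second. The groups did not overlap for 4 of the 8, higher for Xpnpep2 and Dpp4 and lower for Mep1a and Mep1b, against 22.1% of all genes, 9.76% higher and 12.4% lower. The part of Xpnpep2 in that count is not read, for the same reason. Among the other lists, the share without overlap ran from 9.09% for endothelial and for tubular injury markers to 66.7% for macrophage and neutrophil markers. It was 62.5% for proximal tubule markers and 35% for other cell surface peptidases. The median difference was -0.13, beside -0.00 over all genes. Summed over the 8 members, intensity was 5978 to 7106 in db/db+TSF, 6444 to 6993 in db/db and 7357 to 7523 in db/m arrays; all 6 arrays of homozygous mice were below the 3 of db/m, and the sum gives most weight to the members with the highest intensities. The mean of the 8 log2 values weights the members equally, and in it the groups overlapped. It was 8.61 to 9.21 in db/db+TSF, 9.11 to 9.22 in db/db and 9.10 to 9.18 in db/m arrays.

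**Figure D3:**
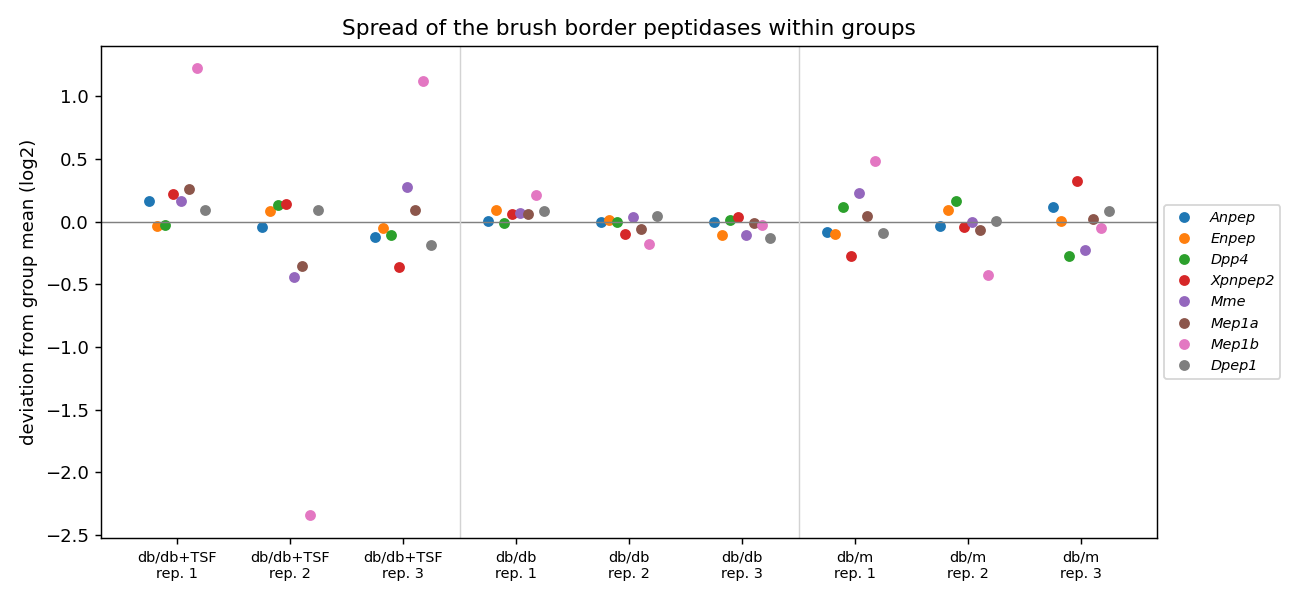
Deviation of each member from its group mean on the log2 scale, by array. In db/db+TSF replicate 2 the deviation is -2.35 for Mep1b, -0.44 for Mme and -0.35 for Mep1a, while Dpp4, Xpnpep2, Dpep1 and Enpep lie 0.08 to 0.14 above it.

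Within groups the members did not all vary together. The SD within groups ran from 0.09 for Enpep to 1.21 for Mep1b, with a median of 0.17 over the 8 beside 0.14 over all genes. In db/db+TSF replicate 2, the endopeptidase genes Mep1b, Mep1a and Mme had their lowest value of the 9 arrays, while Xpnpep2, Dpp4, Anpep, Dpep1 and Enpep had theirs in other arrays. This split by kind of enzyme was seen only after the values. Ace, described below, was also lowest in that array. The share of all genes with their lowest value there was not counted. Of all 17740 genes, Mep1b had the largest gap between this array and the lowest of the other 8, 3.41 on the log2 scale; Mep1a was at rank 145 with 0.40 and Mme at rank 151 with 0.39.

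The next genes in that order, named after their values were seen, were Slc22a19 (gap 2.62), an organic anion transporter, Slc7a13 (2.26), an amino acid transporter of the straight part of the proximal tubule, Slco4c1 (2.26), another organic anion transporter, Aqp4 (2.12), a water channel, Serpina1f (2.11), A4gnt (2.09) and Slc7a12 (1.86). Slc7a13 measured 8.54, 6.27 and 9.29 in db/db+TSF, 9.71, 9.63 and 8.75 in db/db, and 10.85, 10.80 and 10.56 in db/m arrays, so it was also lower in both groups of homozygous mice than in db/m. The summed proximal tubule markers of all db/db+TSF arrays, replicate 2 included, lay within the range of the other arrays, as given above. That sum gives most weight to the brightest markers, so it cannot show a change in single markers or in the straight part alone. Kap, a marker in that sum, differed by -0.59 between db/db+TSF and db/db, where 11 of the markers lay above 0 and 5 below. With each array left out in turn, the Kap difference ran from -0.90 to -0.11. Its limma adjusted p was highest, at 0.89, without db/db+TSF replicate 2. Whether the straight part changed in that array was not tested.

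**Figure D4:**
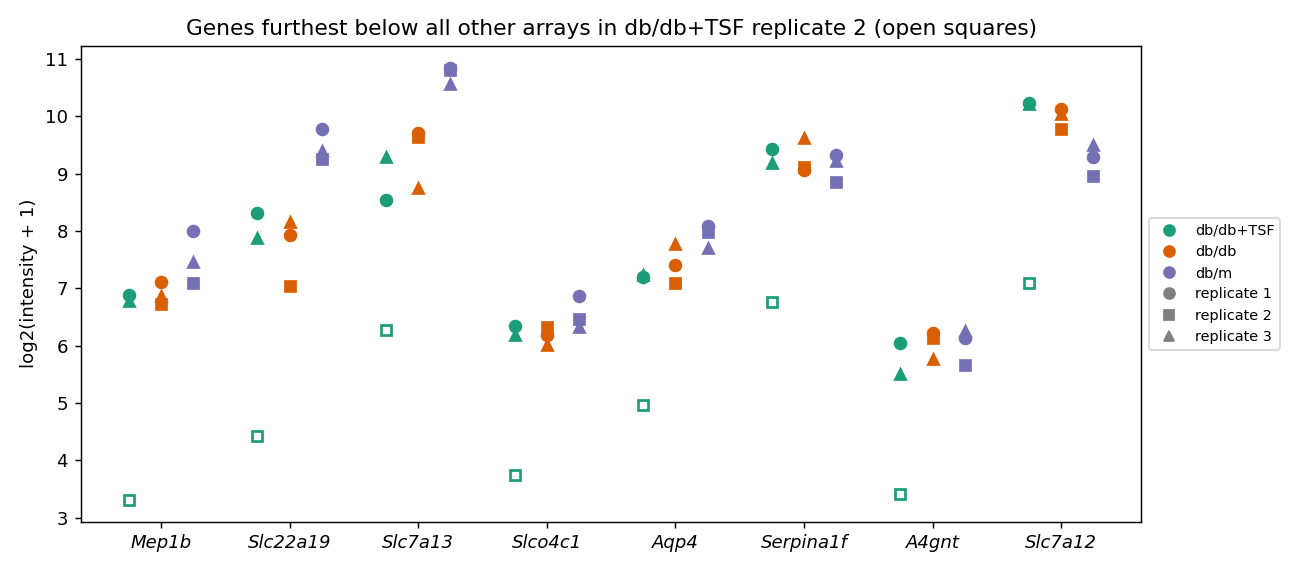
The 8 genes with the largest gap between db/db+TSF replicate 2 and the lowest other array, on the log2(intensity + 1) scale; colours are groups, marker shapes replicates, and open squares the array in question. Mep1b is at 3.31 in that array, and its lowest value in the others is 6.72.

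Other peptidases of the cell surface had no common direction either. In db/db against db/m 0 of 20 tested passed, with 11 above and 9 below 0 (median 0.06). Those of smallest p were Folh1 (0.47), a glutamate carboxypeptidase, Bace1 (0.29) and Adam17 (0.40), a sheddase, with limma adjusted p-values of 0.137, 0.154 and 0.164. Under TSF against db/db 0 passed, with Ece1 (-0.21) and Dpep2 (-0.30) of smallest p. In the alternatives other than leaving an array out, Dpep2 ran from -0.36 to 0.05, so its direction depended on the processing. Ece1 ran from -0.27 to -0.19. Ece1 (-0.50), the endothelin-converting enzyme gene, and Ace (-1.28) fell in db/db+TSF against db/m. The Ece1 call did not hold when db/m replicate 1 or 2 or db/db+TSF replicate 2 or 3 was dropped (highest adjusted p = 0.0957, without db/db+TSF replicate 2).

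Ace, the gene of the angiotensin-converting enzyme and a brush border peptidase as well, was named after its values were seen. It measured 9.24, 7.66 and 8.76 in db/db+TSF, 8.88, 8.84 and 8.87 in db/db, and 9.92, 9.53 and 10.05 in db/m arrays. All 6 arrays of homozygous mice were below the 3 of db/m, and db/db+TSF replicate 2 was again the lowest. The difference between db/db and db/m was -0.97 (SE 0.31; limma adjusted p = 0.176), which passed without db/db+TSF replicate 2 (adjusted p = 0.0144). The call in db/db+TSF against db/m (adjusted p = 0.0482) was lost when any array but db/db+TSF replicate 1 or 2 was dropped, at an adjusted p of up to 0.141 (db/m replicate 3).

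Peptidases inside the cell finish the breakdown of peptides that are taken up. In db/db against db/m 1 of 28 passed, Cndp2, the cytosolic dipeptidase gene that cleaves carnosine and cysteinylglycine, and 20 of 28 lay below 0 (median -0.06). Cndp2 averaged 9.47 ± 0.07 in db/db+TSF, 9.69 ± 0.14 in db/db and 10.53 ± 0.08 in db/m (SD, n = 3). It fell by 0.84 in db/db against db/m (SE 0.10; limma adjusted p = 0.003) and by 1.06 in db/db+TSF against db/m (SE 0.10; adjusted p = 4.05e-04), in both cases in every fit with 1 array left out. Lap3 (-0.40), a leucine aminopeptidase gene, and Acy3 (-0.40), an aminoacylase gene, followed with adjusted p-values of 0.0895 and 0.0936. With TSF against db/db 0 of 28 passed, with Xpnpep3 (-0.23) and Cndp2 (-0.22) of smallest p. Lap3 also fell in db/db+TSF against db/m (-0.43), but that call was lost whichever of the 9 arrays was dropped, with an adjusted p of up to 0.162 when it was db/db+TSF replicate 2.

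**Figure D5:**
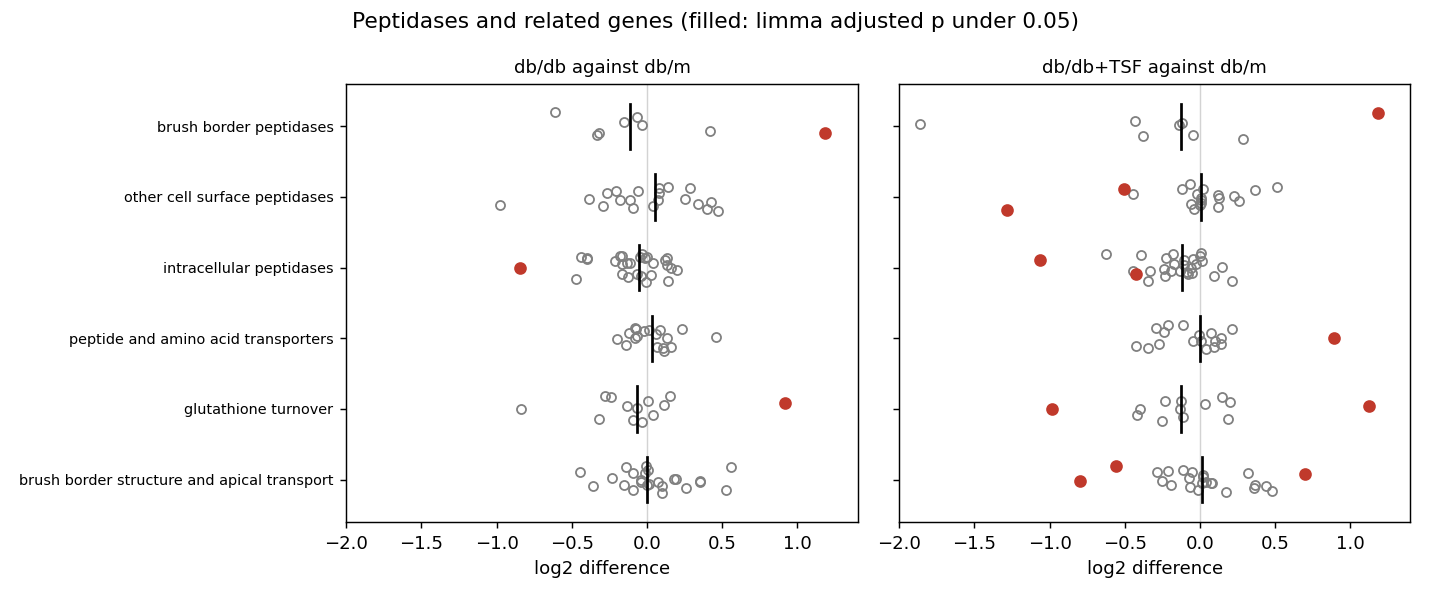
Log2 differences of single genes in db/db against db/m (left) and db/db+TSF against db/m (right), by list; vertical bars are list medians and filled points passed the limma threshold. In the brush border list Xpnpep2 lies at 1.18 in both panels, and among the intracellular peptidases Cndp2 lies at -0.84 and -1.06.

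The transporters that take up the products gave 0 of 18 past the threshold in db/db against db/m. Those of smallest p were Slc15a1 (0.46), the peptide transporter PEPT1, Slc6a20a (0.23) and Slc36a2 (-0.14). Slc15a1 was dim, at 4.94, 4.96 and 4.73 in db/db+TSF, 4.44, 4.72 and 4.17 in db/db, and 3.89, 3.96 and 4.11 in db/m arrays, with no overlap between any of the 3 groups. It rose in db/db+TSF against db/m (0.89, SE 0.14; limma adjusted p = 0.00686), in every fit with 1 array left out. Its difference of 0.44 between db/db+TSF and db/db did not pass (adjusted p = 0.289), nor did Slc1a1 (-0.19; adjusted p = 0.428), the next of 18.

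Of 13 glutathione turnover genes, the pathway in which Dpep1 works, 1 passed in db/db against db/m: Abcc4 (0.92), an efflux pump gene, rose (limma adjusted p = 0.0115, and 0.0536 without db/db replicate 1). Ggct (-0.84), a gamma-glutamylcyclotransferase gene, and Gclc (-0.32), a subunit of the enzyme that starts glutathione synthesis, had adjusted p-values of 0.0993 and 0.227. None of the 13 passed under TSF against db/db (0 calls), with Chac1 (0.22) and Gss (-0.18) of smallest p. Abcc4 rose (1.12) and Ggct fell (-0.98) in db/db+TSF against db/m. The Ggct call was lost without any of the 3 db/m arrays or db/db+TSF replicate 2 or 3, with an adjusted p of up to 0.123 for db/db+TSF replicate 2.

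Of 24 other genes of brush border structure and apical transport 0 passed in db/db against db/m, with 13 above and 11 below 0; Slc5a1 (0.52), a sodium-glucose transporter, Cdhr2 (0.56), a microvillus protocadherin, and Treh (-0.36), the brush border trehalase, had the smallest p. Slc9a3 (-0.29) and Slc22a12 (-0.35) had the smallest p in db/db+TSF against db/db, where 0 passed. Against db/m, Cdhr2 (0.70) rose in db/db+TSF, and Slc22a12 (-0.80), the urate transporter, and Treh (-0.56) fell. The Slc22a12 call passed with each array left out in turn, while that of Cdhr2 was lost in 5 of these 9 fits and that of Treh in 3, with adjusted p-values of up to 0.108 and 0.0722 (both without db/db+TSF replicate 2).

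Of 9 nuclear factors of proximal tubule genes 0 passed in db/db against db/m, with Nr1i2 (0.66), Ppara (0.29) and Hnf4g (-0.22) of smallest p. Nr1i2 and Ppara encode ligand-activated nuclear receptors. Under TSF against db/db 0 passed as well, with Hnf4g (-0.49) and Ppara (0.43) of smallest p. Ppara (0.72) rose and Hnf4g (-0.70) fell in db/db+TSF against db/m, and each call was lost in 4 of the 9 fits with 1 array dropped, at adjusted p-values of up to 0.0916 and 0.0893 (both without db/db+TSF replicate 2).

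Markers of cell types that could share these genes were read the same way, with the list's genes of smallest p in db/db against db/m and then in db/db+TSF against db/db. Among 16 proximal tubule markers 0 passed in either, led by Acsm2 (-0.34), Slc22a6 (-0.28) and Kap (-0.87), then Pck1 (0.24) and Kap (-0.59). Kap passed in db/db against db/m without db/db+TSF replicate 2 (limma adjusted p = 0.00556). Podocyte markers gave 0 of 9 in both, led by Ptpro (0.29), Nphs1 (0.24) and Podxl (0.21), then Podxl (0.15) and Nphs1 (0.14). Endothelial markers gave 0 of 11 in both, led by Tek (0.22), Kdr (-0.16) and Emcn (0.10), then Egfl7 (-0.16) and Pecam1 (-0.15).

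Of 10 T, B and plasma cell markers Cd3e (-0.78) fell in db/db, ahead of Cd3g (-0.74) and Cd8a (-0.72); the Cd3e call was lost without db/db replicate 1 (adjusted p = 0.0951), db/db replicate 3 (0.09) or db/m replicate 1 (0.0688). Cd3g passed as well without db/db+TSF replicate 2. TSF against db/db gave 0 calls, led by Cd79b (-0.39) and Cd3e (0.20). Macrophage and neutrophil markers, cells of which some carry Anpep, gave 0 of 12 in both, led by Csf1r (-0.48), C1qb (-0.35) and Cd68 (-0.21), then Lyz2 (-0.80) and Ly6g (-1.02). All 12 lay below 0 in db/db+TSF against db/db, and their summed intensity was 400 to 493 in db/db+TSF, 494, 514 and 709 in db/db and 601 to 643 in db/m arrays; the 709 belongs to db/db replicate 3. Without that array, a choice made after seeing the data, 11 of the 12 lay below 0 and the median difference was -0.19, against -0.32 with it; Lyz2 was then at -0.54 and Ly6g at -0.55. In the alternatives other than leaving an array out, the Ly6g difference between db/db+TSF and db/db ran from -1.07 to -0.37. That of Lyz2 ran from -0.86 to -0.65. The part of macrophages and neutrophils in the Anpep values was not tested.

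Loop of Henle, distal tubule and collecting duct markers were on the higher side in db/db, 13 of 13 above 0, with summed intensities of 10859 to 11991 in db/db+TSF, 11062 to 12225 in db/db and 9253 to 9546 in db/m arrays. Calb1 (0.68) rose, ahead of Pvalb (0.35) and Atp6v1b1 (0.28), and its call was lost in 7 of the 9 fits with 1 array dropped, at an adjusted p of up to 0.155 (db/db replicate 1). TSF against db/db gave 0 calls here too, led by Aqp2 (-0.53) and Aqp3 (-0.36). Of 11 tubular injury markers Sprr1a (1.64) and Krt19 (0.49) rose in db/db, ahead of Krt18 (0.40). The Sprr1a call was lost without db/m replicate 3 (adjusted p = 0.0516) and that of Krt19 in 8 of the 9 fits (highest 0.137 without db/m replicate 1); between db/db+TSF and db/db 0 passed, led by Sprr1a (-1.10) and Krt19 (-0.30). The part of these cells in the peptidase values was not tested.

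More markers passed in db/db+TSF against db/m, where more of all genes passed too (3.13%, beside 1.05% in db/db against db/m). Calb1 (1.04) and Pvalb (0.53) of the distal list and Clu (0.60) of the injury list rose. Kap (-1.45), an androgen-responsive proximal tubule gene, and Acsm2 (-0.51) fell, as did the T cell genes Cd3g (-0.92) and Cd3e (-0.58) and the macrophage genes Csf1r (-0.83), Tyrobp (-0.56), Adgre1 (-0.56) and Cd68 (-0.42). Of these, Calb1 alone passed with each of the 9 arrays left out in turn. Podocyte and endothelial markers gave 0 of 9 and 0 of 11. The part of these cell types in the peptidase values of this comparison was not tested either.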

How the data were processed

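RNA of kidney cortex was measured on 9 Affymetrix arrays, 3 per group. The deposited values are intensity values on a linear scale, 1 per probe set and array; Affymetrix Expression Console and Transcriptome Analysis Console are named per the submitters' processing notes, while how background, normalization and probe summary were handled is not stated there. The number of arrays limits the precision, and no detection calls were used.

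Of 41345 probe sets, 23521 had 1 gene symbol in the platform annotation, 1814 had several and the other 16010 were not named there; only the first kind was used. Symbols of members matched the RefSeq gene table of GRCm38 by Entrez identifier. The probe set with the highest mean stood for its gene (1082 genes had more than 1). The scale was log2 with a pseudocount of 1, on which the fold changes of dim genes come out too small. Genes whose mean was below 2.65, the 30th percentile over probe sets, were left out, leaving 17740.

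All 9 arrays entered one limma model (limma 3.58.1, R 4.3.3) with a mean for each group (lmFit, eBayes without trend or robust settings), with Benjamini-Hochberg adjustment over all 17740 genes and a threshold of 0.05. Adjusted p-values in the text are from this fit or, where an array is left out, from the same model without it. Standard errors are those of the moderated fit. Numbers directly following a gene's name in brackets are log2 differences, except where another quantity is named. The fit was tested on simulated data made from these genes' means and spreads.

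The members and the 13 other gene lists (198 of 213 entries matched a probe set) were chosen with earlier results of these data known. The named genes are all members, the 3 of smallest p of each other list in db/db against db/m and the 2 in db/db+TSF against db/db, the 3 genes most like a member that passed, and others said to be named after their values were seen; genes of the lists named in db/db+TSF against db/m were taken because they passed there. Lists are described by counts and medians, with no list test. Upstream sequences are from RefSeq (GRCm38.p6); windows of Mep1b and Ggt1 were not used. Alternatives covered the pseudocount, filter, probe set choice, scaling, quantile normalization, variance model, array weights, arrays in the fit, replicate number as a block and leaving out each array.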

Additional observations from a re-analysis of the deposited data

How the results depend on the processing

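As a description, the difference of Xpnpep2 from db/m ran from 1.01 to 1.34 for db/db and from 1.01 to 1.36 for db/db+TSF over the 19 alternatives of each comparison; since the gene was chosen with such a difference known, nothing is read from its calls. No other member passed under any alternative in any comparison; the lowest adjusted p-values were 0.0621 for Mep1a in db/db+TSF against db/m and 0.0991 for Dpp4 in db/db against db/m. The number of members past the threshold was 1 (Xpnpep2) in db/db against db/m, 0 with TSF against db/db and 1 (Xpnpep2) in db/db+TSF against db/m in every fit with 1 array left out. Over all genes the count in db/db against db/m ran from 72 to 194 with 1 array left out (187 with all), and from 130 to 244 in the other alternatives. In db/db+TSF against db/m it ran from 213 to 563 (556 with all), and from 421 to 725 otherwise. For TSF against db/db the count was 0 in all of them. Whether same-numbered arrays share more than a number is not stated. The correlations of their deviations from group means ran from -0.08 to 0.15. With the replicate number as a block the counts over all genes were 137 in db/db against db/m, 0 with TSF against db/db and 434 in db/db+TSF against db/m, and the block changed no call of a member. Among the named genes of the other lists it ended the calls of Calb1 and Krt19 in db/db against db/m and of Ggct, Lap3, Cd68, Tyrobp and Clu in db/db+TSF against db/m. Of the genes of the other lists that passed with all 9 arrays, 1 of 6 in db/db against db/m and 5 of 23 in db/db+TSF against db/m did so whichever array was left out.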
